A study of Mus musculus with 12 samples.

Results

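The aryl hydrocarbon receptor (AhR, gene Ahr), its partner Arnt and 4 of its classic target genes, Cyp1a1, Cyp1b1, Ahrr and Tiparp, were followed in mouse T helper 17 (Th17) cells treated with ILA, with GSK805 or with both compounds. The 6 genes were picked by symbol from 29522 genes with a value in every library, and all 6 were among the 13511 genes tested. Naive CD4+ T cells from the spleens of wild-type (WT) C57BL/6J mice were stimulated through CD3 and CD28 in a Th17-polarizing medium. All groups shared this activation and polarization, and they differed in the compounds added: GSK805 at 0.5 uM plus ILA at 200 uM, ILA at 200 uM, GSK805 at 0.5 uM, or vehicle. Each of these 4 groups has 3 libraries that the labels call biological replicates. ILA is taken here as indole-3-lactic acid, a product of bacterial tryptophan metabolism, and GSK805 as an inhibitor of RORgt, the lineage factor of Th17 cells. The labels name no animals and give no treatment time, so the p-values measure only the spread between these samples, which may be technical.

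AhR is a ligand-activated transcription factor of the bHLH-PAS family. Without ligand it waits in the cytoplasm with HSP90, and with ligand it enters the nucleus, pairs with ARNT and binds DNA elements whose core reads GCGTG. Its target genes include enzymes that oxidize its ligands (Cyp1a1 and Cyp1b1) and inhibitors of the receptor itself (Ahrr, which competes for ARNT, and Tiparp, an ADP-ribosyltransferase that modifies AhR). Among T helper cells the receptor is known chiefly from Th17 cells, where it supports production of interleukin-22, and several tryptophan metabolites are AhR ligands.

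In the genome build GRCm38, Ahr (ENSMUSG00000019256) lies on chromosome 12 from 35497974 to 35535038 and Arnt (ENSMUSG00000015522) on chromosome 3 from 95434388 to 95497240. The position of Cyp1a1 (ENSMUSG00000032315) is 57687928 to 57703824 on chromosome 9. Cyp1b1 (ENSMUSG00000024087) sits on chromosome 17 from 79701537 to 79715061, Ahrr (ENSMUSG00000021575) on chromosome 13 from 74211118 to 74292331 and Tiparp (ENSMUSG00000034640) on chromosome 3 from 65528410 to 65555518. The value of each gene covers its exons. The 5' end of Ahr overlaps the opposite-strand transcript Gm48236, listed at 1.82 to 3.50 FPKM, and that of Tiparp overlaps the opposite-strand pseudogene 4931440P22Rik, listed at 7.15 to 8.68 FPKM. The pseudogene Gm42672 lies inside Arnt on the same strand, at 0.406 to 1.93 FPKM. Reads of the opposite-strand overlaps cannot be told apart without strand, and strand would not separate Gm42672 from Arnt. None of the sources used here states how strand was handled.

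Promoter sequences (RefSeq, GRCm38.p6, from 250 bases before to 50 after the start of the gene) matched 5 of the 6 genes by symbol, all except Ahr. They are shown for the 3 targets that rose with ILA and for Tiparp, which did not, since the same DNA core is what the receptor dimer is known to bind. Capitals mark every GCGTG on either strand (CACGC where it lies on the opposite strand), and each sequence reads 5' to 3' along its gene.
Cyp1a1, chr9:57697363-57697662, plus strand: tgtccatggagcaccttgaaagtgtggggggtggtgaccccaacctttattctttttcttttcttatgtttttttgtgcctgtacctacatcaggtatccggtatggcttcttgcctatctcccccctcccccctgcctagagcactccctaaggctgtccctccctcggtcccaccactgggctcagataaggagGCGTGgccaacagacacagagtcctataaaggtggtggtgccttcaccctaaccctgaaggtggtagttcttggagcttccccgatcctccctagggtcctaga
Cyp1b1, chr17:79715012-79715311, minus strand: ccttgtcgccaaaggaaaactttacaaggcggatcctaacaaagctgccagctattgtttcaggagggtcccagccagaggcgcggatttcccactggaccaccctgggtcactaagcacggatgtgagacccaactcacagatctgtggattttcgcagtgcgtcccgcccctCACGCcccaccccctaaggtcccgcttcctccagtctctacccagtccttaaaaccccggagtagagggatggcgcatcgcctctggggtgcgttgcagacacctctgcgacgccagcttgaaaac
Ahrr, chr13:74292282-74292581, minus strand: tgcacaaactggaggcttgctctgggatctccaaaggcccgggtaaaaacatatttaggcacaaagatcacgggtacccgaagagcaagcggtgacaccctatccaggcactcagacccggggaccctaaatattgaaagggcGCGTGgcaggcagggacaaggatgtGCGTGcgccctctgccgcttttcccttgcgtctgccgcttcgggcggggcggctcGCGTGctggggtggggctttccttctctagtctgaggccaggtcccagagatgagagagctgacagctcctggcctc
Tiparp, chr3:65528197-65528496, plus strand: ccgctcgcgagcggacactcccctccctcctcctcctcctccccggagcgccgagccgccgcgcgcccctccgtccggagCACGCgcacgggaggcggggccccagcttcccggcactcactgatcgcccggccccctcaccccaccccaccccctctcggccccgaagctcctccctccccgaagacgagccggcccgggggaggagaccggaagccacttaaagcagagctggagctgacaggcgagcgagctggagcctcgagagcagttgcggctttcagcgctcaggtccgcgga

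Ahrr carried 3 copies of the core within this window, and Cyp1a1, Cyp1b1, Tiparp and Arnt carried 1 each. The core begins 54 bases before the RefSeq start of Cyp1a1, 76 before that of Cyp1b1, 170 before that of Tiparp and 29 before that of Arnt. Those of Ahrr begin 107, 82 and 27 bases before its start, and the last of these sits in the longer motif TNGCGTG, which contains the core and was found in no other of the 5 windows. Of 10920 promoters of tested genes 51.3% hold the core and 8.22% the longer motif on either strand. All 5 windows thus hold the core, those of the genes that rose and that of Tiparp alike. The GENCODE model of Cyp1a1 starts upstream of the RefSeq start used here.

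Values are FPKM, reads scaled to gene length and library depth, as the authors deposited them. Levels set side by side between genes are approximate. They depend on the exon length taken for each gene and on the overlaps named above. The libraries held 17800000 to 23400000 reads by reconstruction from these values, and the 6 genes had between 333 reads (Ahrr, vehicle replicate 3) and 10214 reads (Cyp1b1, GSK805+ILA replicate 2) in a library. The summed level of 8 Th17 markers was 311 to 336 FPKM with GSK805+ILA, 598 to 646 with ILA, 441 to 490 with GSK805 and 1303 to 1592 with vehicle, most of it the cytokine genes Il17a and Il17f. The T cell genes Cd4 and Cd3e did not follow this sum, with means of 87.8 and 38.1 FPKM with GSK805+ILA, 117 and 37.5 with ILA, 39.7 and 24.9 with GSK805, and 42.4 and 19.0 with vehicle. Il23r and Ccr6 averaged 0.295 and 0.181 FPKM with GSK805+ILA, against 8.17 and 4.80 with vehicle. Of genes known from other cells, Cd8a stayed at or below 0.298 FPKM, while Cd8b1 had group means of 1.27 to 4.06 FPKM and Gzma had 2.84 to 9.28 FPKM. The macrophage gene Adgre1 stayed at or below 0.0711 FPKM, while Csf1r had 1.96 to 3.82 and Cd74 6.06 to 11.2 FPKM. The summed markers of CD8 T and NK cells were 7.96 to 11.5 FPKM with GSK805+ILA, 5.06 to 6.57 with ILA, 10.7 to 14.0 with GSK805 and 11.0 to 15.4 with vehicle. Those of myeloid and dendritic cells were 9.74 to 10.5, 13.1 to 14.7, 11.9 to 12.9 and 13.6 to 15.8 FPKM in the same order of groups. The list of stromal, endothelial and epithelial genes summed to 29.6 to 30.8, 30.0 to 31.9, 18.3 to 18.5 and 15.6 to 17.5 FPKM, nearly all of it Epcam and Pecam1, while Cdh5 and Col1a2 were at or near 0. B cell markers came to at most 2.90 FPKM in any library. Erythroid and platelet markers came to at most 0.311 FPKM except in 1 ILA library, at 19.1 FPKM, nearly all Hba-a1. Of the genes of these 5 lists that had values, 3 of 6 (CD8 T and NK), 2 of 9 (myeloid), 2 of 7 (stromal), 1 of 5 (B cell) and 1 of 5 (erythroid) passed the filter. The part of these markers in the results was not tested. In bulk RNA fewer cells of a type and less RNA per cell cannot be told apart.

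Each gene was compared between groups on log2(FPKM + 1) with limma, in 1 fit over all 12 libraries, and a difference was called where the p-value adjusted over all 13511 genes was below 0.05. Folds are given on the FPKM + 1 scale, where genes at low levels seem to change less than they do. The 3 comparisons with vehicle share the vehicle libraries. With GSK805+ILA 5 of the 6 genes were higher than with vehicle and none lower, where 31.8% of all tested genes were higher and 20.3% lower. With ILA alone 5 were higher and 1 lower, against 33.9% and 24% of all genes. With GSK805 alone 4 were higher and none lower, against 15.7% and 7.08%. The median log2 fold change of the 6 genes was 0.85, 0.84 and 0.26 in these comparisons, beside medians of 0.06, 0.06 and 0.05 over all tested genes.

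**Figure D1:**
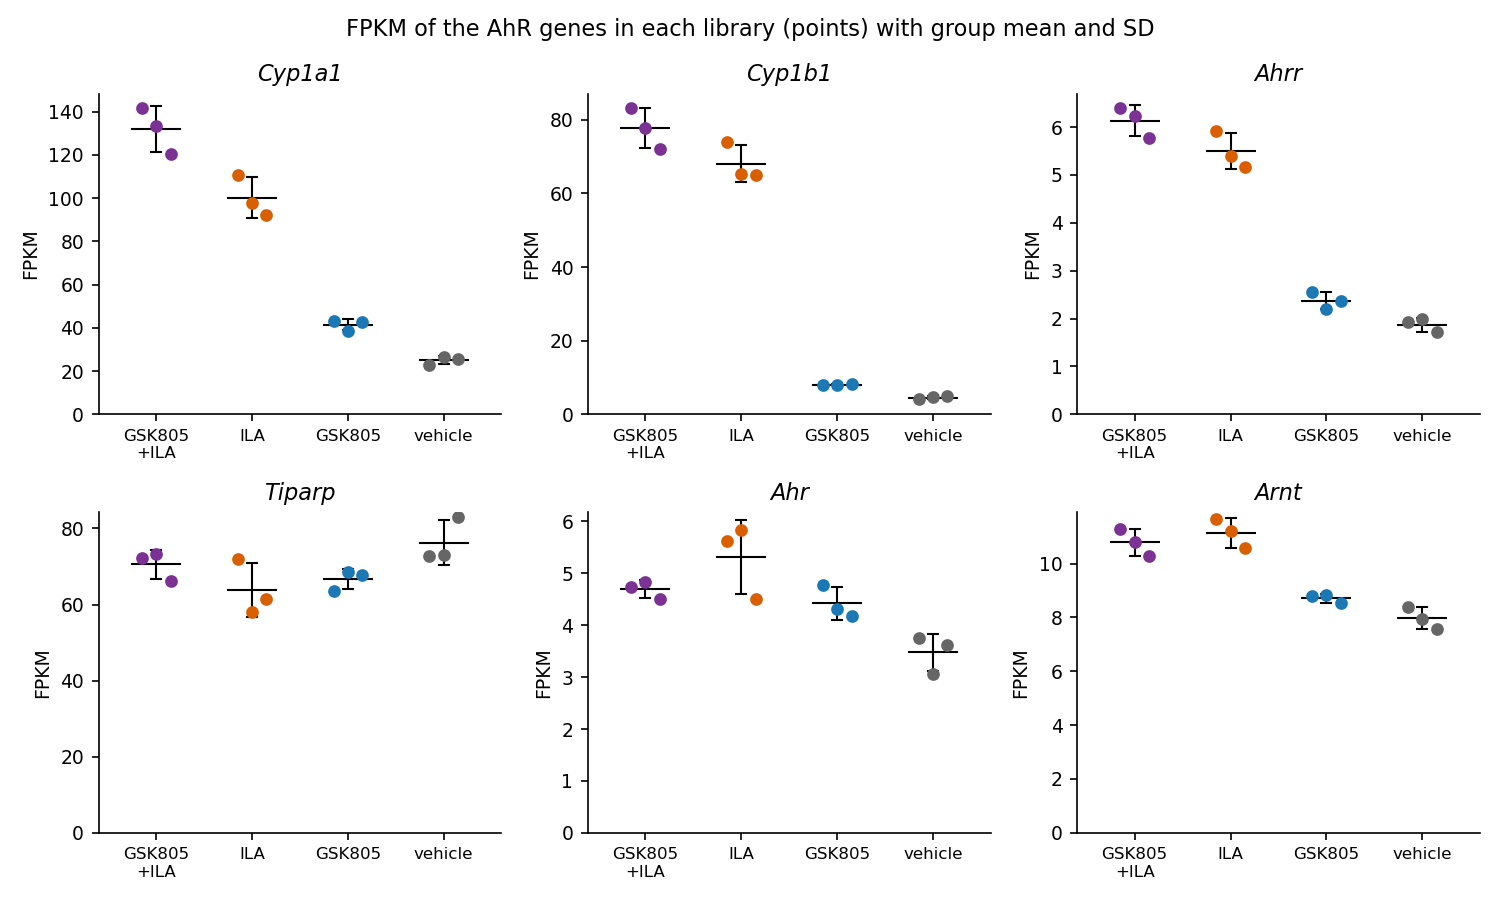
FPKM (linear axis from 0) of the 6 genes in each of the 12 libraries, 1 point per library, with the group mean as a line and the SD as a bar (n = 3). Cyp1a1, Cyp1b1 and Ahrr stand apart in the 2 groups with ILA, while Tiparp stays between 58.1 and 83.0 FPKM throughout.

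Cyp1b1 and Cyp1a1, the cytochrome P450 enzymes that oxidize AhR ligands, had the largest changes of the 6 genes. Cyp1b1 had 83.1, 77.9 and 72.1 FPKM with GSK805+ILA, 73.9, 65.2 and 65.0 FPKM with ILA, 8.04, 7.98 and 8.13 FPKM with GSK805, and 4.05, 4.57 and 4.87 FPKM with vehicle. Both groups with ILA lay far above both without it, every GSK805 library lay above every vehicle library, and the GSK805+ILA and ILA groups overlapped. Against vehicle, Cyp1b1 was 14.3-fold higher with both compounds (log2 3.84, SE 0.07, limma adjusted p = 5.01e-11), 12.6-fold higher with ILA (log2 3.65, SE 0.07, adjusted p = 8.75e-11) and 1.65-fold higher with GSK805 (log2 0.72, SE 0.07, adjusted p = 5.94e-05). Among the 13511 tested genes it ranked 1 by fold change both with GSK805+ILA and with ILA, and 149 with GSK805. The rank depends on the added 1: with a pseudocount of 0.1 it was 5, 14 and 357. As ratios of mean FPKM without the added 1, the 3 increases were 17.3-fold, 15.1-fold and 1.79-fold.

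Cyp1a1 had 142, 133 and 121 FPKM with GSK805+ILA, 111, 97.7 and 92.2 FPKM with ILA, 43.3, 38.7 and 42.6 FPKM with GSK805, and 22.8, 26.7 and 25.6 FPKM with vehicle. No 2 of these 4 groups overlapped. Against vehicle it was 5.10-fold higher with both compounds (log2 2.35, SE 0.08, limma adjusted p = 5.22e-09), 3.89-fold higher with ILA (log2 1.96, adjusted p = 9.17e-09) and 1.64-fold higher with GSK805 (log2 0.71, adjusted p = 1.98e-04). By fold change it ranked 8 with GSK805+ILA, 40 with ILA and 161 with GSK805, and 76, 249 and 467 with a pseudocount of 0.1.

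Adding GSK805 to ILA moved the P450 genes less than adding ILA to GSK805. Cyp1a1 averaged 132 ± 10.6 FPKM with GSK805+ILA and 100 ± 9.60 FPKM with ILA (SD, n = 3 each), a 1.31-fold increase (log2 0.39, 95% interval 0.21 to 0.57, limma adjusted p = 0.0080). It was the only one of the 6 genes called between these groups, where 9.92% of all tested genes were higher and 8.64% lower. Cyp1b1 averaged 77.7 ± 5.49 FPKM and 68.0 ± 5.05 FPKM there (log2 0.19, 95% interval 0.04 to 0.34 unadjusted, limma adjusted p = 0.083), which was not called. It was called on recovered reads (log2 0.19, adjusted p = 0.0040) and without ILA replicate 1 (log2 0.25, adjusted p = 0.044), with adjusted p between 0.0040 and 0.251 over its alternatives.

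Adding ILA to GSK805 raised 4 of the 6 genes and lowered none, against 22% and 17.5% of all tested genes. Cyp1b1 was 8.68-fold higher with GSK805+ILA than with GSK805 (77.7 ± 5.49 FPKM and 8.05 ± 0.0743 FPKM, SD, n = 3 each; limma adjusted p = 9.92e-10). Cyp1a1 was 3.12-fold higher (132 ± 10.6 FPKM and 41.5 ± 2.43 FPKM, adjusted p = 1.86e-07). Between the single compounds, ILA also gave more of both than GSK805 did, 7.61-fold for Cyp1b1 (adjusted p = 9.88e-10) and 2.38-fold for Cyp1a1 (adjusted p = 3.73e-07). In that comparison 4 of the 6 genes were higher with ILA and none lower, against 27.1% and 25.4% of all genes.

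**Figure D2:**
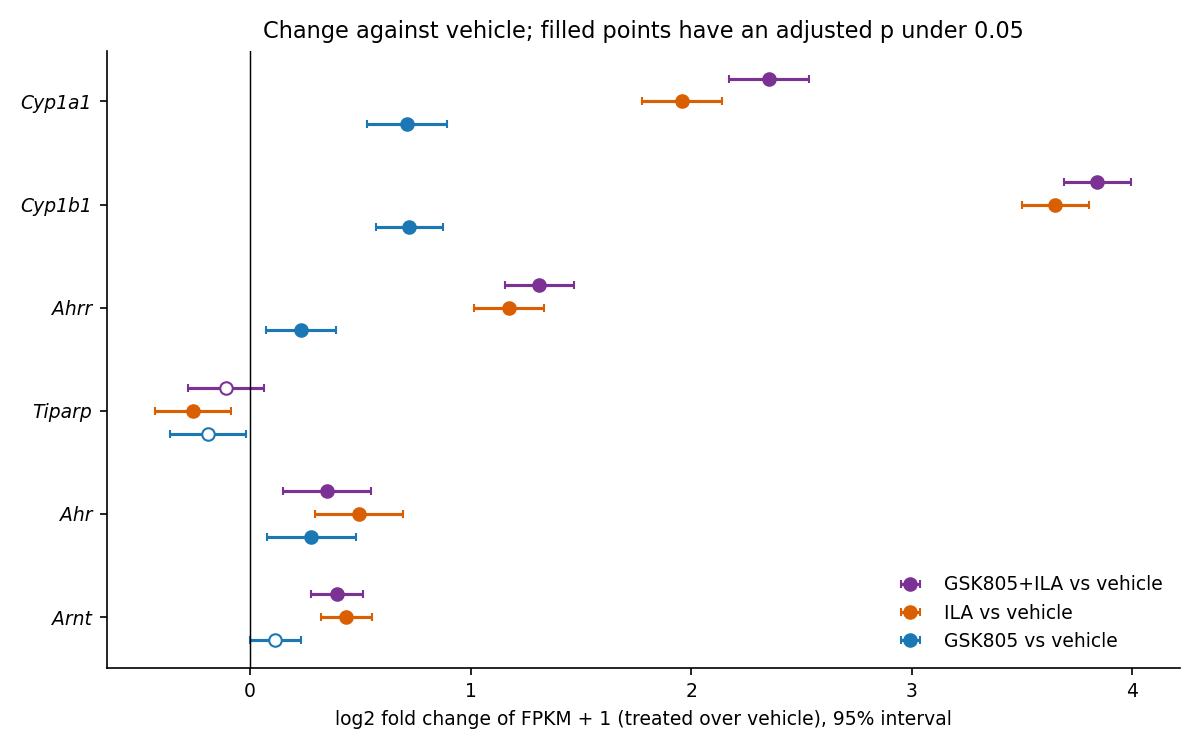
Log2 fold change of FPKM + 1 against vehicle for the 6 genes, with 95% intervals from limma, for GSK805+ILA, ILA and GSK805. Filled points have an adjusted p under 0.05; Cyp1b1 reaches 3.84 and 3.65 in the groups with ILA, and Tiparp lies below 0 in all 3 comparisons.

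The interaction term asks whether the fold change with ILA differed in the presence of GSK805. It compares folds, not differences in FPKM. A positive term can be a larger rise or a smaller fall with ILA when GSK805 is present. Cyp1b1 was the only one of the 6 genes called there, where 5.15% of all tested genes had a positive and 8.7% a negative called term (log2 -0.53, SE 0.10, limma adjusted p = 0.0065). Its increases with the single compounds multiply to 20.7-fold, and the measured increase with both was 14.3-fold. The interaction of Cyp1b1 was called under all 20 alternatives, with values between -0.66 and -0.42. That of Cyp1a1 was -0.32 (SE 0.12, adjusted p = 0.095; 6.36-fold from the single compounds and 5.10-fold measured), and it was called on recovered reads alone (adjusted p = 0.029; alternatives up to 0.221).

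The P450 pair did not move by equal folds with ILA. Cyp1b1 FPKM divided by Cyp1a1 FPKM was 0.587, 0.585 and 0.598 with GSK805+ILA, 0.666, 0.668 and 0.705 with ILA, 0.186, 0.206 and 0.191 with GSK805, and 0.177, 0.172 and 0.190 with vehicle. The ratio was thus higher in every library with ILA than in every library without it, and lower with GSK805+ILA than with ILA. GSK805 and vehicle libraries overlapped. On the log2(FPKM + 1) scale the ratio was 1.49 higher with GSK805+ILA and 1.69 higher with ILA than with vehicle, and 0.20 lower with GSK805+ILA than with ILA (difference -0.20). Each gave p = 0.1 in a two-sided exact permutation test, the smallest that 3 against 3 libraries allow, and 0.12 adjusted over 6 comparisons. For GSK805 against vehicle the difference was 0.01 (exact permutation p = 0.8, two-sided), 0.10 with a pseudocount of 0.1.

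**Figure D3:**
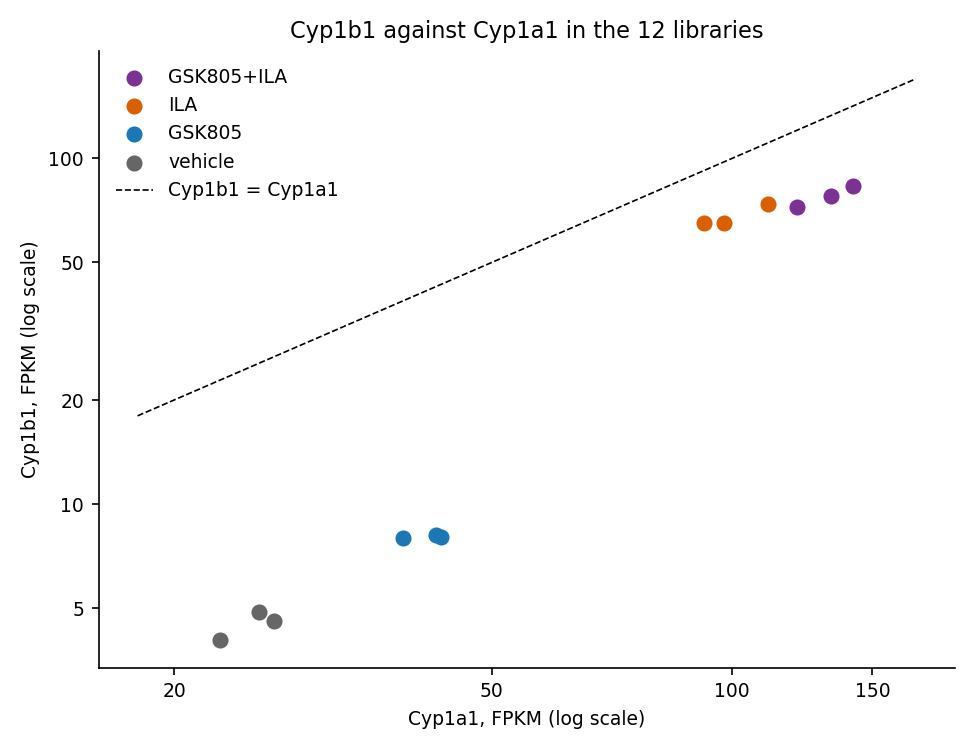
Cyp1b1 FPKM against Cyp1a1 FPKM in the 12 libraries, both on log axes, 1 point per library, with a dashed line where the genes are equal. All points lie under the line, and the 6 libraries with ILA lie closer to it (ratio 0.585 to 0.705) than the 6 without (0.172 to 0.206).

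Of the inhibitors of the receptor, Ahrr rose with ILA and Tiparp did not. Ahrr, the AhR repressor, had 6.40, 6.24 and 5.77 FPKM with GSK805+ILA, 5.92, 5.41 and 5.17 FPKM with ILA, 2.56, 2.20 and 2.36 FPKM with GSK805, and 1.92, 1.99 and 1.71 FPKM with vehicle. The GSK805+ILA and ILA groups overlapped, and each of these lay above GSK805, which lay above vehicle. Against vehicle Ahrr was 2.48-fold higher with both compounds (log2 1.31, SE 0.07, limma adjusted p = 7.61e-08) and 2.26-fold higher with ILA (log2 1.18, SE 0.07, adjusted p = 1.19e-07). It was 2.11-fold higher with GSK805+ILA than with GSK805 (adjusted p = 9.79e-07) and 1.92-fold higher with ILA than with GSK805 (adjusted p = 1.05e-06). As ratios of mean FPKM the increases over vehicle were 3.27-fold with both compounds and 2.93-fold with ILA.

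With GSK805 alone Ahrr was 1.17-fold higher than with vehicle (log2 0.23, limma adjusted p = 0.040). That call was lost after quantile normalization (0.117), with median centring (0.156), without a filter (0.085), in a fit of GSK805 and vehicle alone (0.122) and without vehicle replicate 1, 2 or 3 (0.060, 0.052 and 0.134) or GSK805 replicate 1 or 3 (0.133 and 0.082). Over all its alternatives the adjusted p ran from 0.012 to 0.156. Ahrr was not called between GSK805+ILA and ILA (log2 0.14, 95% interval -0.02 to 0.29, adjusted p = 0.222) or in the interaction (log2 -0.10, SE 0.10, adjusted p = 0.573).

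Tiparp, which encodes the ADP-ribosyltransferase PARP7, had 72.2, 73.4 and 66.2 FPKM with GSK805+ILA, 71.9, 58.1 and 61.5 FPKM with ILA, 63.6, 68.5 and 67.9 FPKM with GSK805, and 72.8, 73.0 and 83.0 FPKM with vehicle. All ILA and all GSK805 libraries lay below all vehicle libraries, and GSK805+ILA overlapped vehicle. With ILA, Tiparp stood 1.20-fold below its vehicle level (log2 -0.26, SE 0.08, limma adjusted p = 0.0147). Leaving out ILA replicate 2 or vehicle replicate 3 ended this call (0.064 each), and over its alternatives the adjusted p ran from 0.0013 to 0.064. It was not called with GSK805+ILA (log2 -0.11, 95% interval -0.28 to 0.06, adjusted p = 0.266) or with GSK805 (log2 -0.19, 95% interval -0.36 to -0.02 unadjusted, adjusted p = 0.106; 0.041 on recovered reads). Between GSK805+ILA and ILA it was not called either (log2 0.15, 95% interval -0.02 to 0.32, adjusted p = 0.218), save without ILA replicate 1 (0.047).

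Centring each library on the median of its tested genes shifts all values downward against vehicle. The shift was 0.14 (log2) with GSK805+ILA, 0.14 with ILA and 0.08 with GSK805. The median log2 fold change over all tested genes was smaller, at 0.06, 0.06 and 0.05. With this centring Tiparp was called lower against vehicle in all 3 groups: -0.25 with GSK805+ILA (limma adjusted p = 0.022), -0.39 with ILA (0.0013) and -0.27 with GSK805 (0.036). Quantile normalization left only the call with ILA (-0.21, limma adjusted p = 0.038). There Tiparp was -0.06 with GSK805+ILA (0.570) and -0.15 with GSK805 (0.213). Against vehicle it was called in 1 of 15 alternatives with GSK805+ILA and in 2 of 15 with GSK805. Its interaction, 0.34 (SE 0.11, limma adjusted p = 0.065), was called with median centring (0.41, adjusted p = 0.032), on recovered reads (0.019), with a filter at 5 FPKM (0.044) and without ILA replicate 1 (0.020), with adjusted p up to 0.160 elsewhere.

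The receptor and its partner changed by smaller amounts. Ahr had 4.74, 4.84 and 4.50 FPKM with GSK805+ILA, 5.62, 5.83 and 4.50 FPKM with ILA, 4.78, 4.31 and 4.18 FPKM with GSK805, and 3.75, 3.07 and 3.61 FPKM with vehicle. Every treated library lay above every vehicle library, the 3 treated groups overlapped one another, and ILA replicate 3 lay apart from the other 2 ILA libraries. Against vehicle Ahr was 1.27-fold higher with both compounds (log2 0.35, SE 0.09, limma adjusted p = 0.0072), 1.41-fold higher with ILA (log2 0.49, SE 0.09, adjusted p = 6.78e-04) and 1.21-fold higher with GSK805 (log2 0.28, SE 0.09, adjusted p = 0.048). With median centring these values were 0.21, 0.36 and 0.20, and only the one with ILA was called (adjusted p = 0.057, 0.0041 and 0.130). Quantile normalization left the same single call (adjusted p = 0.122, 0.012 and 0.159).

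The call of Ahr with GSK805 was also lost without a filter (0.113), in a fit of those groups alone (0.074), without GSK805 replicate 1, 2 or 3 (0.156, 0.087 and 0.065) and without vehicle replicate 2 or 3 (0.162 and 0.082), its alternatives starting at 0.0081. Its interaction was -0.42 (SE 0.13, limma adjusted p = 0.052), just above the threshold. It was called on recovered reads (0.0049), with a filter at 5 FPKM (0.040), with the replicate number as a block (0.049) and without ILA replicate 3 (0.016) or vehicle replicate 1 (0.047), and ran up to 0.124 elsewhere. Between ILA and GSK805 Ahr was not called (log2 0.22, adjusted p = 0.067), save on recovered reads (0.016) and without ILA replicate 3 (0.0096), with alternatives up to 0.331. Nor was it called between GSK805+ILA and GSK805 (log2 0.07, 95% interval -0.13 to 0.27, adjusted p = 0.571) or between GSK805+ILA and ILA (log2 -0.14, 95% interval -0.34 to 0.06, adjusted p = 0.309).

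Arnt, the DNA-binding partner of AhR and also of the hypoxia factors, had 11.3, 10.8 and 10.3 FPKM with GSK805+ILA, 11.7, 11.2 and 10.6 FPKM with ILA, 8.81, 8.82 and 8.52 FPKM with GSK805, and 8.40, 7.94 and 7.58 FPKM with vehicle. The GSK805+ILA and ILA groups overlapped, both lay above GSK805, and GSK805 lay above vehicle by a narrow gap. Against vehicle Arnt was 1.31-fold higher with both compounds (log2 0.39, SE 0.05, limma adjusted p = 8.28e-05) and 1.35-fold higher with ILA (log2 0.44, SE 0.05, adjusted p = 2.88e-05). Both calls held with median centring, at 0.26 and 0.30. With GSK805 alone it was not called (log2 0.12, 95% interval -0.0012 to 0.23, adjusted p = 0.147). It was 1.21-fold higher with GSK805+ILA than with GSK805 (adjusted p = 0.0016) and 1.25-fold higher with ILA than with GSK805 (adjusted p = 3.63e-04). Its interaction was -0.16 (SE 0.07, adjusted p = 0.185).

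Ranked by mean level, Cyp1a1, Cyp1b1 and Ahrr shared the order GSK805+ILA, ILA, GSK805, vehicle. For Cyp1a1 each step of that order was called, while for Cyp1b1 and Ahrr the first step was not. Ahr and Arnt were highest with ILA, followed by GSK805+ILA, GSK805 and vehicle. The step from GSK805+ILA to GSK805 was called for Arnt, and that from GSK805 to vehicle for Ahr. Tiparp ran from vehicle through GSK805+ILA and GSK805 to ILA, and no neighbouring pair in its order was called. Within groups the SD was between 0.923% of the mean, for Cyp1b1 with GSK805, and 13.5% of the mean, for Ahr with ILA.

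Set side by side per length, the genes changed places. With GSK805+ILA the mean levels were 132 FPKM for Cyp1a1, 77.7 for Cyp1b1, 70.6 for Tiparp, 10.8 for Arnt, 6.14 for Ahrr and 4.70 for Ahr. With vehicle they were 76.3 FPKM for Tiparp, 25.0 for Cyp1a1, 7.97 for Arnt, 4.50 for Cyp1b1, 3.48 for Ahr and 1.87 for Ahrr. The FPKM of the repressor gene Ahrr lay above that of Ahr in every GSK805+ILA library and below it in every GSK805 and every vehicle library. With ILA the order was mixed, Ahrr being above Ahr in replicates 1 and 3 and below it in replicate 2. Together the 6 genes took 0.0871% to 0.101% of all FPKM with GSK805+ILA, 0.0743% to 0.0863% with ILA, 0.0424% to 0.0436% with GSK805 and 0.0359% to 0.0391% with vehicle.

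The genes whose pattern came closest were sought for the 3 genes that moved by over 1 log2 unit. Closeness was the root mean square difference of log2(FPKM + 1), set to the vehicle mean, over the 12 libraries, among 7210 genes with at least 5 FPKM in a group. Ahrr had near neighbours in Irf2bpl, Sh3glb2 and Tnik (0.09 each). For Cyp1a1 the nearest was Gimap3, an immune GTPase (0.15; 219 FPKM with GSK805+ILA, 192 with ILA, 85.9 with GSK805 and 46.0 with vehicle), followed by Lasp1 (0.27) and Rasgrp4 (0.30). For Cyp1b1 the distances were larger: Gimap4 (0.54; 233, 231, 52.5 and 28.1 FPKM in the same order), the transcription factor Npas4 (0.69) and AC124502.5 (0.73). Among the 6 genes the closest pair was Ahr and Arnt (0.12), both of small change, while Cyp1b1 and Cyp1a1 stood 1.13 apart. The distance reflects the size of a change as well as the order of groups, which Cyp1b1 and Cyp1a1 shared.

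**Figure D4:**
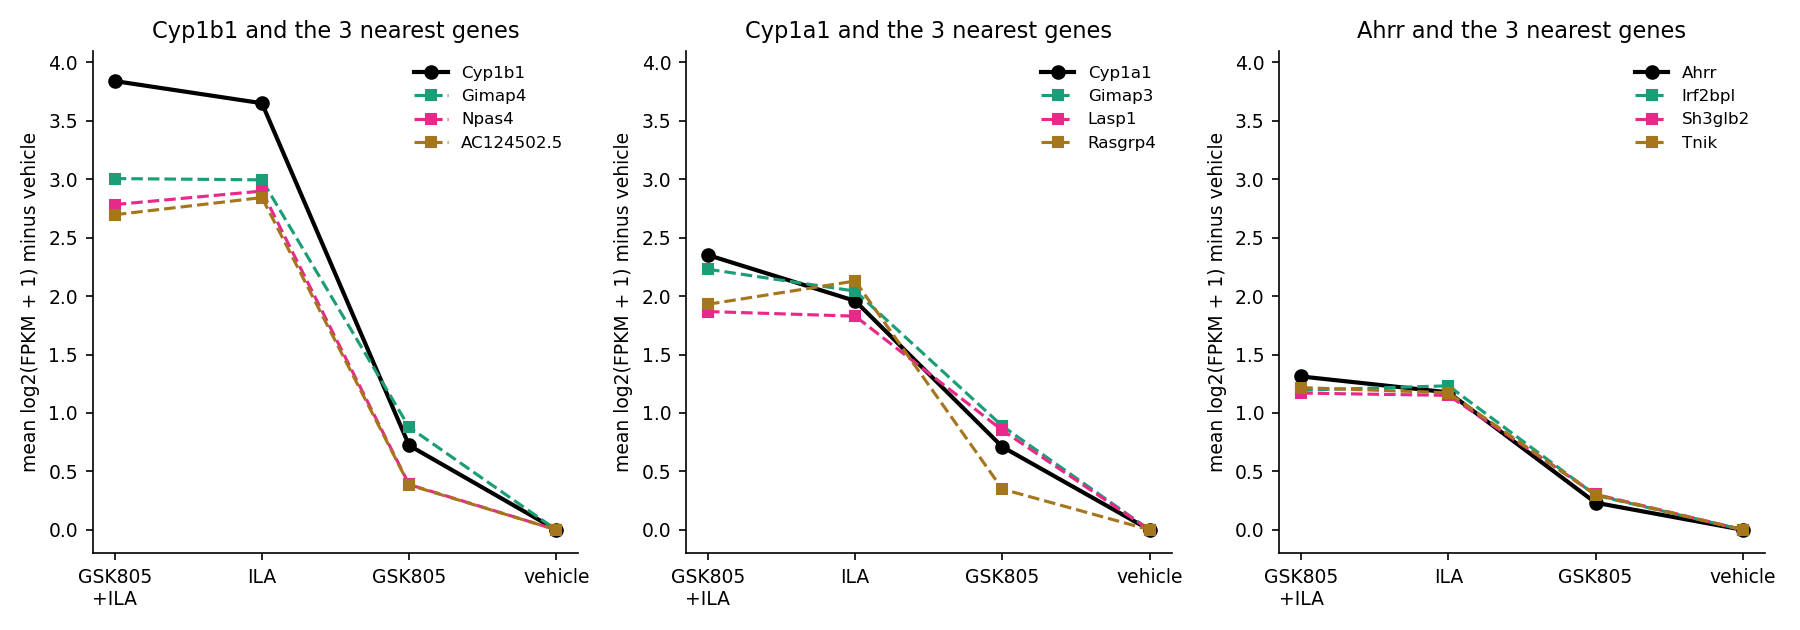
Mean log2(FPKM + 1) minus the vehicle mean in the 4 groups (lines join the groups of 1 gene) for Cyp1b1, Cyp1a1 and Ahrr in black and the 3 nearest genes of each in colour. The neighbours of Ahrr overlie it, and on this scale those of Cyp1b1 reach 2.70 to 3.01 with GSK805+ILA where Cyp1b1 reaches 3.84. The added 1 shrinks the changes of Npas4 and AC124502.5, at 0.316 and 0.180 FPKM with vehicle. As a ratio of mean FPKM, Npas4 rose 25.5-fold with GSK805+ILA and Cyp1b1 17.3-fold.

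Of 4 genes for chaperones of the cytoplasmic receptor complex, 1 was higher and 2 lower with GSK805+ILA, 1 higher and 3 lower with ILA, and none higher and 1 lower with GSK805, with medians of -0.20, -0.26 and -0.02. Hsp90aa1, an HSP90 gene, averaged 155 FPKM with GSK805+ILA and 246 FPKM with vehicle (log2 -0.67, adjusted p = 7.13e-09) and was called in the interaction (log2 0.39, adjusted p = 4.34e-04). Hsp90ab1 averaged 858 and 1071 FPKM in these groups (log2 -0.32, adjusted p = 6.17e-06). Over all tested genes 31.8% were higher and 20.3% lower with GSK805+ILA, 33.9% and 24% with ILA, and 15.7% and 7.08% with GSK805. With median centring, which lowers all values by 0.14 (log2) with GSK805+ILA, 3 of the 4 genes were lower and none higher there. Of all 13511 tested genes 7422 were called in that setting, in either direction. Without a split by direction this total gives no matching share for the 3 lower genes.

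Of the other bHLH-PAS genes and ARNT partners 5 of 13 were tested: 1 was higher and 2 lower with GSK805+ILA, 3 higher and 1 lower with ILA, and 1 higher and 2 lower with GSK805 (medians 0.07, 0.30 and -0.27). Npas4, an activity-induced factor that can pair with ARNT, averaged 8.08 FPKM with GSK805+ILA and 0.316 FPKM with vehicle (log2 2.78, adjusted p = 7.85e-09). It was also higher with ILA (log2 2.90, adjusted p = 4.74e-09) and with GSK805 (log2 0.39, adjusted p = 0.028), the last in 8 of 15 alternatives. The clock factor Arntl was lower with GSK805+ILA, at 5.40 against 9.79 FPKM with vehicle (log2 -0.76, adjusted p = 3.11e-06). Hif1a, the hypoxia factor that also binds ARNT, was higher with ILA (log2 0.30, adjusted p = 8.27e-05), lower with GSK805 (log2 -0.27, adjusted p = 9.90e-04) and called in the interaction (log2 -0.24, adjusted p = 0.024; in 16 of 20 alternatives). It averaged 73.2 FPKM with GSK805+ILA, 105 with ILA, 70.0 with GSK805 and 84.9 with vehicle.

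Of 13 coactivators and corepressors of the receptor, 7 were higher and none lower with GSK805+ILA, 5 higher and 1 lower with ILA, and 5 higher and none lower with GSK805 (medians 0.21, 0.16 and 0.16). Over all tested genes the shares were 31.8% higher and 20.3% lower with GSK805+ILA, 33.9% and 24% with ILA, and 15.7% and 7.08% with GSK805, and the medians 0.06, 0.06 and 0.05; the counts of every list here are to be read against these. With median centring the counts were 5 higher and 2 lower, 5 and 3, and 3 and none. In that setting 7422, 7994 and 2760 of all 13511 tested genes were called, in either direction. These totals are not split by direction and so give no matching share for those counts. Rb1, the retinoblastoma protein gene, averaged 16.3 FPKM with GSK805+ILA and 10.1 FPKM with vehicle (log2 0.65, adjusted p = 1.21e-05), and the coactivator gene Ncoa2 averaged 11.9 and 7.39 FPKM (log2 0.62, adjusted p = 1.27e-06). Rb1, Ncoa2 and the corepressor gene Ncor1 were called in the interaction, at -0.45, -0.41 and -0.28 (adjusted p = 0.012, 0.0048 and 0.030). Those of Rb1 and Ncoa2 were called in all 20 alternatives, that of Ncor1 in 10.

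Of 17 further genes known as AhR targets, 15 had values, and 5 of these reached a mean of 1 FPKM in a group. Among the low ones, picked here after their values were seen, Cyp1a2, the liver-enriched member of the CYP1 family, was at most 0.169 FPKM in any library, and Aldh3a1 at most 0.144 FPKM. Of the 5 tested, 2 were higher and 3 lower with GSK805+ILA, 2 higher and 2 lower with ILA, and 1 higher and 1 lower with GSK805 (medians -0.19, 0.25 and 0.01). Nqo1, a quinone reductase, averaged 3.27 ± 0.748 FPKM with GSK805+ILA, 1.61 ± 0.356 with ILA, 2.81 ± 1.59 with GSK805 and 0.974 ± 0.119 with vehicle (SD, n = 3 each). It was called with both compounds (log2 1.10, adjusted p = 0.0023) and with GSK805 (log2 0.88, adjusted p = 0.021; in 10 of 14 alternatives), not with ILA (log2 0.40, adjusted p = 0.171). Il22, the Th17 cytokine, averaged 0.668 ± 0.286, 6.51 ± 1.80, 0.414 ± 0.162 and 2.97 ± 1.58 FPKM in the same order of groups. It was lower with both compounds (log2 -1.18, adjusted p = 0.0042) and with GSK805 (log2 -1.41, adjusted p = 0.0046) and higher with ILA (log2 0.97, adjusted p = 0.011). Fosl1, an AP-1 subunit gene, was called in the interaction (log2 0.37, adjusted p = 0.024; in 17 of 20 alternatives). Against vehicle it was lower with ILA (log2 -0.79) and with both compounds (log2 -0.47).

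**Figure D5:**
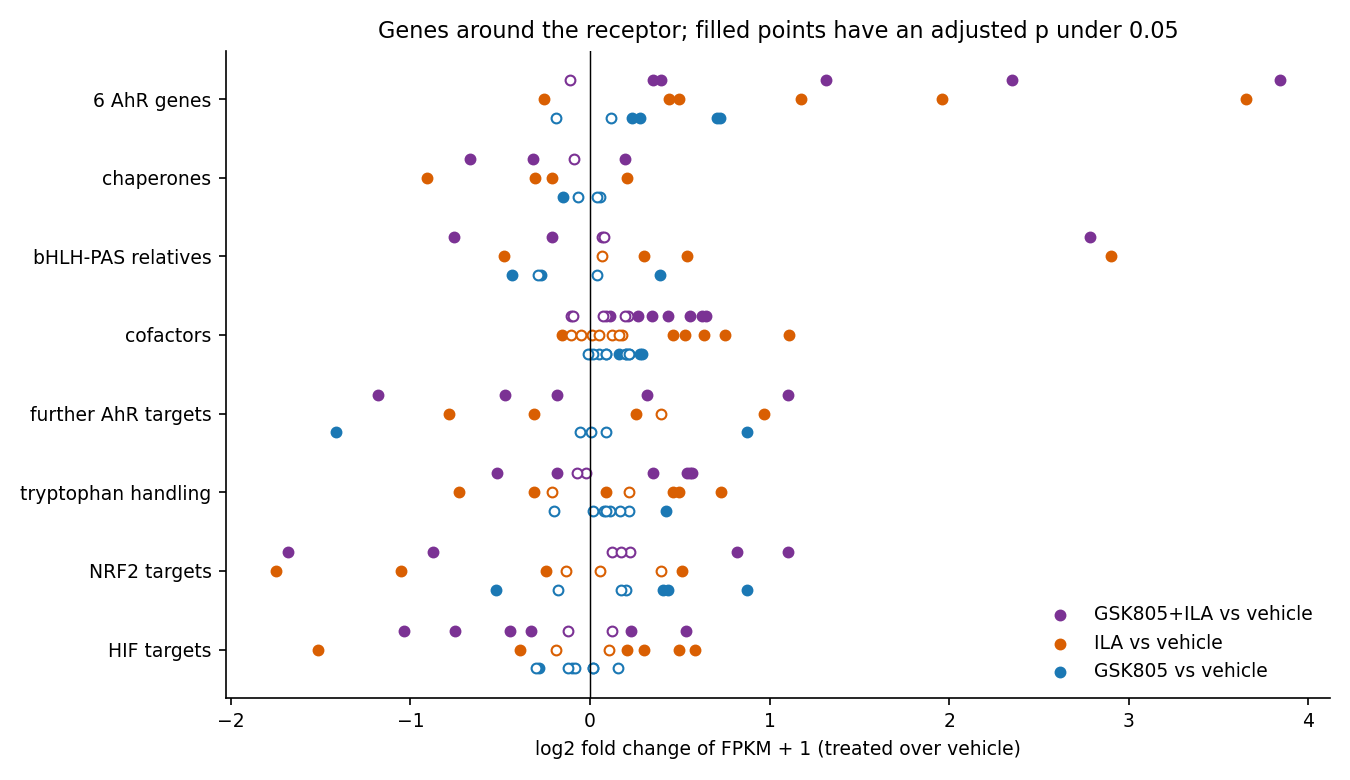
Log2 fold change of FPKM + 1 against vehicle for the 6 AhR genes and for the tested genes of 7 lists, 1 point per gene and comparison, filled where the adjusted p is under 0.05. Cyp1b1 and Npas4 lie farthest to the right, and the further AhR targets lie on both sides of 0.

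Tryptophan and kynurenine enzymes and transporters had 4 of 8 tested genes higher and 2 lower with GSK805+ILA, 4 and 2 with ILA, and 1 and none with GSK805 (medians 0.16, 0.15 and 0.10). The aromatic amino acid transporter gene Slc16a10 (log2 0.57, adjusted p = 2.24e-05) and Kyat1, a kynurenine aminotransferase gene (log2 0.55, adjusted p = 0.0043), were higher with GSK805+ILA than with vehicle. Slc16a10, Slc3a2 and Wars were called in the interaction, at -0.35, -0.18 and 0.41 (adjusted p = 0.027, 0.023 and 0.017), in 11, 14 and 19 of 20 alternatives. Wars was lower than with vehicle both with ILA (log2 -0.73) and with GSK805+ILA (log2 -0.52). NRF2 targets had 2 of 7 higher and 2 lower with GSK805+ILA, 1 and 3 with ILA, and 3 and 1 with GSK805 (medians 0.17, -0.14 and 0.20). Srxn1, which encodes sulfiredoxin, stood at 7.29 FPKM with GSK805+ILA and 25.5 FPKM with vehicle (log2 -1.68, adjusted p = 5.21e-08) and was called in the interaction (log2 0.59, adjusted p = 0.012). HIF targets had 2 of 8 higher and 4 lower with GSK805+ILA, 4 and 2 with ILA, and none and 1 with GSK805 (medians -0.23, 0.16 and -0.09). Ndrg1 (log2 -1.04, adjusted p = 4.93e-08) and Vegfa (log2 -0.75, adjusted p = 5.43e-06) were lower with GSK805+ILA than with vehicle. Ndrg1 and Bnip3 were called in the interaction, at 0.60 and -0.65 (adjusted p = 0.0012 and 0.015).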

How the data were processed

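RNA of 12 libraries (4 groups of 3) was used as FPKM values deposited by the authors, 1 value per gene and library. Per the submitters' processing notes, FastQC 0.11.2, Bowtie and the build mm10 were used. How reads were counted, and on which annotation, is not stated in the sources used here. Symbols, positions and exon lengths came from GENCODE vM21 (GRCm38), which can differ from the annotation the authors used, and 28807 of 29522 identifiers matched. With these lengths 98.7% to 98.9% of values below 500 reads lay within 0.1 of a whole number of reads, which gave the depth.

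Kept genes reached 1 FPKM on average in any group. Log2(FPKM + 1) was fitted in limma 3.58.1 (R 4.3.3) with 1 mean per group, variance trend and robust moderation. Contrasts gave 6 pairwise comparisons and the interaction, with Benjamini-Hochberg adjustment over all kept genes. The procedure was tested on simulated data. The P450 ratio was compared with exact permutation tests (scipy 1.17.1). Members, lists and the rules for naming genes were chosen with earlier results of these data known: from each list the text names the 2 largest called changes with GSK805+ILA against vehicle and the genes called in the interaction. The alternatives were plain limma moderation, quantile normalization, median centring, other filters (none, or 5 FPKM), 0.1 as pseudocount, a replicate block, a fit of the groups compared alone, voom on recovered reads, and each library left out in turn. For the named genes of the lists the same alternatives were added after seeing the data. Outside the voom alternative, counting error behind single values was not modelled.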

Additional observations from a re-analysis of the deposited data

Results flagged for a closer look

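The fold increase of Cyp1b1 with ILA was smaller in the presence of GSK805 than without it (interaction -0.53 on the log2 scale, limma adjusted p = 0.0065). It was an 8.68-fold increase with GSK805 present and a 12.6-fold increase without. The interaction term itself is what marked the gene, and no second test of it was made. The level without ILA was 8.05 ± 0.0743 FPKM with GSK805 and 4.50 ± 0.414 FPKM with vehicle (SD, n = 3 each). The level with ILA was 77.7 ± 5.49 FPKM with GSK805 present and 68.0 ± 5.05 FPKM without it. The interaction compares folds, not differences in FPKM.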

How the results depend on the processing

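For the 6 genes, 619 alternative values kept their direction and side of the threshold, 22 lost a call, 18 gained one and 1 turned: Ahr between GSK805+ILA and GSK805, not called, was -0.020 after quantile normalization (adjusted p = 0.880), and the cause was not tested. The calls against vehicle of Cyp1a1, Cyp1b1, Ahrr and Arnt in both groups with ILA, and of Ahr with ILA, held under all 15 alternatives of each. Of 927 values of 19 named list genes, 854 stayed called and 1 turned: Slc3a2 with ILA was -0.045 with median centring, against 0.090.

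The number of the 6 genes called with GSK805 against vehicle was 4, and it was 2 after quantile normalization, 2 without a filter and 2 in a fit of those groups alone, 3 with median centring and 5 with voom. It ran from 2 to 3 when a library was left out. In the interaction it was 1, and it was 2 with median centring, 3 with the filter at 5 FPKM and 4 with voom, and from 1 to 2 with a library left out. Between GSK805+ILA and ILA it was 1, and 2 with voom, and from 1 to 3 with a library left out (3 without ILA replicate 1). All genes called in the interaction numbered 1871, but 1067 without a filter and 1195 to 1969 with a library left out: 1195 without GSK805+ILA replicate 3, 1206 without GSK805 replicate 1 and 1229 without vehicle replicate 3. Between GSK805+ILA and ILA they numbered 2507, and 1596 (without GSK805+ILA replicate 3) to 2160 with a library left out. The cause was not tested. With a pseudocount of 0.1 the log2 P450 ratio differed by 1.69 for GSK805+ILA and 1.89 for ILA against vehicle, 0.10 for GSK805 against vehicle, and 1.59 for GSK805+ILA and 1.79 for ILA against GSK805, since the added 1 shrinks low Cyp1b1 values most.

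Deviations of same-numbered libraries from their group means correlated between -0.0818 and 0.0785 over 18 pairs, and 8 of 18 correlated best with their own number. These values cannot show whether equal numbers mark matched samples. With the replicate block 2 of the 6 genes were called in the interaction (1 without it), no member call changed otherwise, and 7066, 7793 and 3081 genes were called against vehicle with GSK805+ILA, ILA and GSK805, beside 7033, 7818 and 3076. With voom on recovered reads these counts were 7361, 7989 and 3702. The interaction uses all groups, so it has no fit of fewer groups. Each of the 6 genes had at least 333 reads in every library. With 3 libraries a group, small differences such as those of Ahr and Ahrr with GSK805 turned on single libraries.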
